A study of Mus musculus with 6 samples.

Results

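The genes described here act in Wnt signalling at the cell surface: the Wnt ligands, their Frizzled and Lrp receptors, the secreted antagonists of the Sfrp, Dkk and Wif families, and the R-spondins with their Lgr receptors and the ubiquitin ligases Znrf3 and Rnf43. The reporter gene Axin2 and the nuclear factors Lef1 and Tcf7 were added. Members were found by gene symbol, not by measured values, and made up 55 of the 28539 loci in the table, for 53 symbols, since Wnt10a and Znrf3 each had 2 loci with the same coordinates. RNA was measured in whole corneas of female C57BL/6J mice aged 6 to 8 weeks, left untreated (day 0) or injured by alkali and sampled 5 or 15 days later. The labels call day 15 a stage of regression. Each of the 3 groups had 2 samples, and nothing in the labels tells whether these were separate animals.

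Wnt proteins are secreted, lipid-modified signals. In the best known branch a Wnt binds a Frizzled receptor together with Lrp5 or Lrp6, which stops the breakdown of beta-catenin and lets it act with Tcf and Lef factors on genes such as Axin2. Other Wnts, Wnt5a and Wnt11 among them, are best known for branches without beta-catenin that steer cell polarity and movement. Sfrp proteins, Frzb and Wif1 bind Wnts outside the cell, Dkk1 and Dkk2 bind Lrp5 and Lrp6, and R-spondins acting through Lgr receptors protect Frizzleds from removal by Znrf3 and Rnf43. In the mouse eye, loss of Dkk2 is known to give the corneal surface features of skin.

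In the injured cornea the ligand genes Wnt3a, Wnt5a and Wnt11 and the antagonist genes Dkk1 and Dkk2 were lower on both days, and the receptor gene Fzd1 was higher on both days. Sfrp2 and Lgr5 were higher on day 5, Lgr6 was higher on day 15 and Wnt2 was lower on day 15. Values are the authors' FPKM (fragments per kilobase of transcript, scaled to the mapped fragments of a library), pooled over the samples of a group, and the range in brackets is the authors' interval. Single samples were not analysed here, so replicate spread is unknown and no p-value can be given. In bulk tissue, fewer cells of a type and less RNA per cell cannot be told apart. Groups were called apart at a locus where both values had a good status, the intervals did not overlap, the log2 ratio of (FPKM + 1) reached 1 in size, and the higher value reached 1.

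On day 5 against day 0, 5 of 38 members tested were lower and apart, beside 2.50% of 15576 loci in the whole table, and 3 were higher and apart, beside 3.42%. On day 15 against day 0, 6 of 38 were lower and apart, beside 1.81% of 15186 loci, and 2 were higher and apart, beside 2.91%. The median log2 ratio of the tested members was -0.17 and 0.03, beside -0.09 and -0.10 over all tested loci. Both comparisons share the day 0 group. Of the 55 members, 40 reached FPKM of 1 in some group and 15 did not.

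Promoters are printed for 4 of these genes, to set the proximal sequence of Wnt3a, Wnt11 and Dkk1, which were lower, beside that of Fzd1, which was higher. Each runs from 250 bases before to 50 bases after the annotated start, comes from RefSeq on GRCm38.p6, and reads 5′ to 3′ on the strand of the gene. Capitals mark CTTTGA, the core bound by Tcf and Lef factors, or its reverse complement TCAAAG. Both strands were searched. Of the 10 members apart on either day, 8 had an entry in the promoter table and 3 of these 8 held the core in the first listed promoter. All 3 are among those printed, while the windows of Dkk2, Wnt2, Sfrp2 and Lgr6, and the second one of Wnt11, held none. The core was held by 16.2% of all symbols and 12.2% of those with FPKM of at least 1. A set of 8 is too small to set against these shares.
Wnt3a (chr11:59290702-59291001, minus strand): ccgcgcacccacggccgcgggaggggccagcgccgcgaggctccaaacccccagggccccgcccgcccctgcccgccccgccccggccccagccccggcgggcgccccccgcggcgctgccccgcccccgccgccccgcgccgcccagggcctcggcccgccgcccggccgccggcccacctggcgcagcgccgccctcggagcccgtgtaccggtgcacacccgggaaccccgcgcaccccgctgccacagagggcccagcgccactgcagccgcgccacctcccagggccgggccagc
Wnt11 (chr7:98834862-98835161, plus strand): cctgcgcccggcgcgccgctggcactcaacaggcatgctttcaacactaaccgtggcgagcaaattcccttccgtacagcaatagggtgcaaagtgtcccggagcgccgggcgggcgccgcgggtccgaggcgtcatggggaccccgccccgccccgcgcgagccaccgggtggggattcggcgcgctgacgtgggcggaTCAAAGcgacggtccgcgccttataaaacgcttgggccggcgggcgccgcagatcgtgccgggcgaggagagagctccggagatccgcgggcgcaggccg
Dkk1 (chr19:30549447-30549746, minus strand): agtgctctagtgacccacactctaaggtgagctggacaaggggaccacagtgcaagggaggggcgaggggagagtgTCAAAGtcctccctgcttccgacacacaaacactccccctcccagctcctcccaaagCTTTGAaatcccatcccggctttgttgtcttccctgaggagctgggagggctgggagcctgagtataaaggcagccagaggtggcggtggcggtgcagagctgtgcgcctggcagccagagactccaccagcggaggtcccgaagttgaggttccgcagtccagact
Fzd1 (chr5:4758167-4758466, minus strand): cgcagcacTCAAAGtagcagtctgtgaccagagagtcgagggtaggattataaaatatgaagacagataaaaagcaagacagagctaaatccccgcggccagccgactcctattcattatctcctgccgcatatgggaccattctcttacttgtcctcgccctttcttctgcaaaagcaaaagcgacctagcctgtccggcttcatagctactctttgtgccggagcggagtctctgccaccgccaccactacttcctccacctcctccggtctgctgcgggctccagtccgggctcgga

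The core starts at base -50 from the start site in the Wnt11 window and at base -242 in that of Fzd1. The Dkk1 window holds 2 copies, at bases -174 and -117. The Wnt3a window holds none and consists to 86.3% of G and C, against a median of 67.2% over the 24 members above FPKM of 1 with an entry and 52.7% over all symbols. Of 38 member symbols with FPKM of at least 1 in any group, 24 had an entry in the promoter table, and 4 of these (Dkk1, Frzb, Fzd1 and Wnt11) held the core in their first listed promoter. That is 16.7%, beside 16.2% of all 27025 symbols and 12.2% of those with FPKM of at least 1. A match describes letters and does not show a binding site.

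The ligands had the widest differences. Of 13 ligand loci tested on day 5, 3 were lower and apart and none was higher and apart, and their log2 ratios had a median of -0.84. On day 15, 4 of 13 were lower and apart and none was higher and apart, and the median was -0.98. On each day 10 of the 13 had a lower value than day 0, both Wnt10a loci among them. Over all tested loci, 8583 of 15576 had a lower value on day 5 and 8638 of 15186 on day 15. Of all tested loci, 2.50% were lower and 3.42% higher and apart on day 5. On day 15 these shares were 1.81% and 2.91%.

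Wnt3a, a ligand of the beta-catenin branch (chromosome 11, 59248042 to 59290751, mm10), stood at 24.8 (12.8 to 36.8) before injury, 1.12 (0.0958 to 2.14) on day 5 and 2.9 (0.723 to 5.07) on day 15. The uninjured group lay far above both injured groups, whose intervals overlapped each other. The value was 22.1-fold lower on day 5 and 8.56-fold lower on day 15, with log2 ratios of -3.61 and -2.73. Ordered by that ratio, Wnt3a was number 68 from the bottom of the tested loci on day 5 and number 113 on day 15, and it had the widest difference of all members on both days.

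Wnt5a, known for its part in polarity and movement (chromosome 14, 28504600 to 28527416), stood at 21.7 (10.4 to 33.0) before injury, 5.81 (2.48 to 9.14) on day 5 and 6.09 (2.39 to 9.8) on day 15. Wnt11, of the same branch (chromosome 7, 98835112 to 98855481), stood at 9.87 (4.08 to 15.7) before injury, 1.72 (0.239 to 3.2) on day 5 and 2.02 (0.301 to 3.74) on day 15. For both genes the 2 injured groups overlapped each other and lay below the uninjured group. The differences were 3.73-fold and 3.56-fold for Wnt5a and 5.73-fold and 4.89-fold for Wnt11. An exon of each overlaps an annotated gene on the other strand, Gm2670 and Gm8398, and whether reads were counted by strand is not given in the sources used here.

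Wnt2 (chromosome 6, 17987907 to 18030445) was at 3.94 (1.8 to 6.07) before injury, 1.71 (0.458 to 2.97) on day 5 and 0.804 (0.109 to 1.5) on day 15. Its day 15 interval lay below that of day 0, while day 5 overlapped both. It was therefore apart on day 15 only, and its difference between the 2 injured groups was not resolved.

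Several abundant ligands had lower values without being apart. Wnt4, a ligand of many epithelia, was at 24.9 (12.9 to 37.0) before injury, 15.7 (8.06 to 23.3) on day 5 and 18.2 (9.4 to 26.9) on day 15. The better measured Wnt10a locus was at 21.9 (7.1 to 36.8), 11.8 (2.48 to 21.1) and 13.0 (3.3 to 22.7) on the same days, and the other at 5.01 (0 to 17.9), 3.17 (0 to 8.96) and 1.81 (0 to 6.27). Wnt6 was at 4.5 (0.988 to 8.0) before injury, 0.540 (0 to 1.22) on day 5 and 0.827 (0 to 1.72) on day 15, and Wnt7b at 5.22 (2.58 to 7.87), 1.78 (0.706 to 2.86) and 2.15 (0.907 to 3.4). For these 4 genes every value after injury lay below day 0, with intervals that overlapped it.

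Some ligands had higher values after injury, all at low levels. Wnt10b was at 0.165 (0 to 0.364) before injury, 0.548 (0 to 1.3) on day 5 and 2.47 (0 to 4.98) on day 15, so its day 15 interval reached 0. Wnt16 was at 0.232, 1.08 and 0.680, Wnt2b at 0.883, 2.17 and 1.42 and Wnt5b at 1.78, 3.22 and 2.95 in day order. None of the 4 was apart. Wnt1, Wnt3, Wnt7a, Wnt8a, Wnt8b and Wnt9b did not exceed 0.0979, and 5 of these 6 were listed at 0 in at least 1 group.

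**Figure D1:**
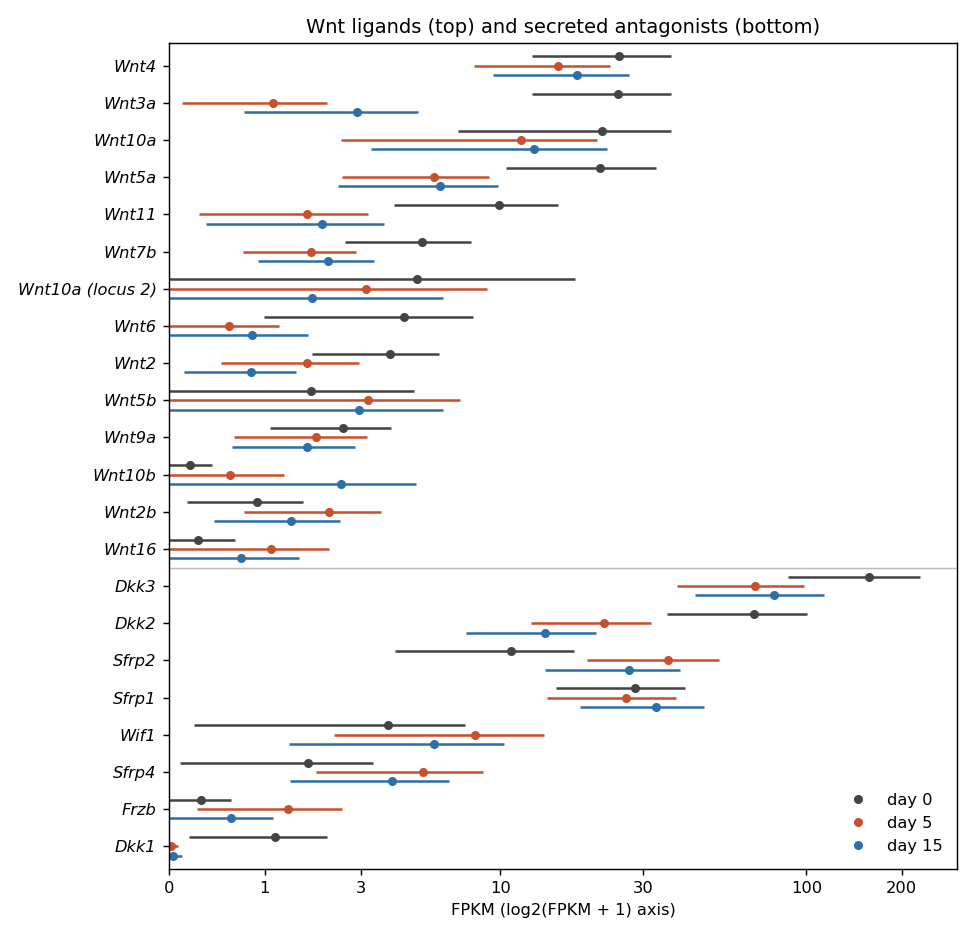
FPKM of ligands (top) and secreted antagonists (bottom) that reached FPKM of 1 in any group, on a log2(FPKM + 1) axis, with points for group values and lines for the authors' intervals (day 0 grey, day 5 red, day 15 blue). The day 0 intervals of Wnt3a, Wnt5a, Wnt11, Dkk1 and Dkk2 lie above both later ones, and that of Sfrp2 lies below day 5; "locus 2" is the less abundant Wnt10a locus.

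The ligand genes together summed to FPKM of 128, 52.3 and 57.1 in day order, a sum with no interval of its own. With both Wnt10a loci added, Wnt10a made up 21.1% of it before injury, Wnt4 19.5%, Wnt3a 19.4% and Wnt5a 17.0%, and the intervals of these 4 overlapped. On day 5 Wnt4 held 29.98%, Wnt10a 28.6% and Wnt3a 2.14%. On day 15 the shares were 31.8%, 26.0% and 5.07%. Without Wnt3a, Wnt5a and Wnt11 the sums of the other 16 genes were 71.2, 43.7 and 46.1.

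Some Wnt genes are neighbours on a chromosome. Wnt3a and Wnt9a lie 16.2 kb apart on chromosome 11, and Wnt9a stood at 2.52 (1.07 to 3.97) before injury, 1.89 (0.595 to 3.18) on day 5 and 1.71 (0.576 to 2.85) on day 15, with overlapping intervals throughout. Wnt6 and Wnt10a, 6.7 kb apart on chromosome 1, both had lower values after injury. Of Wnt1 and Wnt10b, 11.7 kb apart on chromosome 15, Wnt10b alone reached FPKM of 1, and of Wnt3 and Wnt9b, 24.4 kb apart on chromosome 11, neither did.

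Among the secreted antagonists the Dkk genes had lower values and Sfrp2, Sfrp4, Frzb and Wif1 higher ones. Of 8 tested on day 5, 2 were lower and 1 was higher and apart, and the log2 ratios had a median of 0.41. On day 15, 2 of 7 were lower and apart and none was higher and apart, and the median was 0.21. The shares over all tested loci were 2.50% lower and 3.42% higher on day 5, and 1.81% and 2.91% on day 15.

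Dkk2 (chromosome 3, 132084847 to 132180304) was at 67.9 (35.9 to 100.03) before injury, 22.3 (12.8 to 31.8) on day 5 and 14.3 (7.57 to 20.9) on day 15. Both injured groups lay below the uninjured one, by 3.05-fold and 4.77-fold. Of the 8 members apart on day 5, Dkk2 alone had a day 15 value still farther from day 0, within overlapping intervals of days 5 and 15.

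Dkk1 (chromosome 19, 30545885 to 30549496), the best known inhibitor of Lrp6, was at 1.15 (0.158 to 2.15) before injury, 0.0121 (0 to 0.0636) on day 5 and 0.0266 (0 to 0.0987) on day 15. It was apart on both days, from a level just above the minimum, and no fold is given because the later values are close to 0. Dkk3, a relative whose part in Wnt signalling is unsettled, had the highest value of all members in every group. It was at 158 (87.5 to 229) before injury, 68.4 (38.4 to 98.3) on day 5 and 78.7 (44.1 to 113) on day 15. Each time it overlapped the next antagonist, which was Dkk2, Sfrp2 and Sfrp1 in day order. Its values were 2.31-fold and 2.01-fold lower, with intervals that overlapped day 0. Dkk4 had 0.0197 before injury and was listed at 0 afterwards.

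Sfrp2 (chromosome 3, 83766321 to 83774314), which binds Wnts and is often made by fibroblasts, was at 10.9 (4.14 to 17.7) before injury, 36.1 (19.6 to 52.6) on day 5 and 26.9 (14.2 to 39.5) on day 15. Day 5 lay above day 0 without overlap, by 3.3-fold, and day 15 was 2.46-fold higher with overlap. The annotated gene Gm26771 overlaps an exon of it on the other strand. Sfrp4 was at 1.72 (0.0821 to 3.36) before injury, 5.3 (1.89 to 8.71) on day 5 and 4.0 (1.41 to 6.6) on day 15, Frzb at 0.256, 1.36 and 0.561 and Wif1 at 3.87 (0.199 to 7.54), 8.18 (2.3 to 14.1) and 5.82 (1.39 to 10.3). These 3 had their highest value on day 5 and were not apart. Sfrp1 was at 28.2 (15.5 to 40.8) before injury, 26.3 (14.4 to 38.3) on day 5 and 32.8 (18.5 to 47.1) on day 15, and Sfrp5 did not exceed 0.118.

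In day order the 4 Dkk genes summed to 227, 90.7 and 92.9, and the Sfrp genes with Frzb to 41.2, 69.2 and 64.3. Sfrp2 made up 4.01%, 21.5% and 16.5% of all antagonist FPKM, and Dkk2 25.0%, 13.3% and 8.74%. The Dkk sum is mostly Dkk3, which was not apart.

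**Figure D2:**
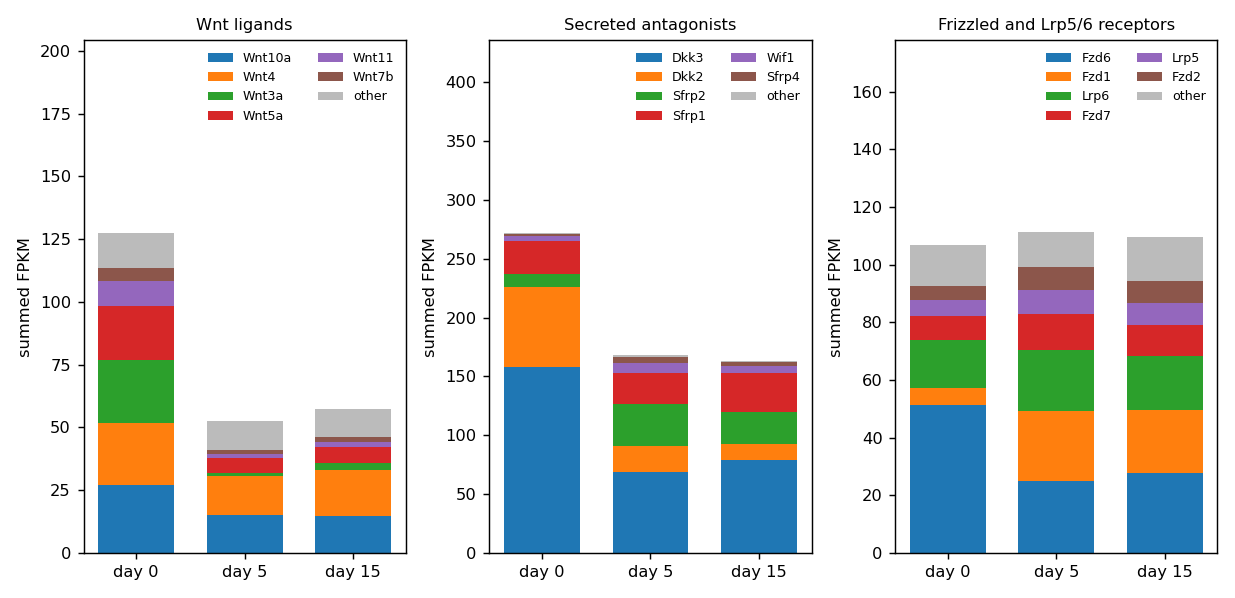
Summed FPKM (y axis, linear) of ligands, secreted antagonists and receptors in each group, stacked by gene, with the 6 most abundant genes in colour and all others in grey; no interval of a sum was used. Ligand sums were 128, 52.3 and 57.1 and antagonist sums 272, 168 and 163, against receptor sums of 107, 111 and 109.7.

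Receptors differed in make-up more than in total: the 10 Frizzled genes summed to 85.0, 81.5 and 83.4 in day order. Of 10 receptor loci tested, Fzd1 was the single one apart on either day. Over all tested loci, 3.42% and 2.91% were higher and apart on days 5 and 15. The log2 ratios of the receptors had medians of 0.43 and 0.41.

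Fzd1 (chromosome 5, 4751993 to 4758216), a receptor for ligands of the beta-catenin branch, was at 6.17 (3.22 to 9.11) before injury, 24.3 (13.5 to 35.1) on day 5 and 21.8 (12.2 to 31.4) on day 15. Both injured groups lay above the uninjured one, by 3.94-fold and 3.53-fold. Its locus in the table is 1.48 times as long as the GENCODE gene, the widest excess among the members. Fzd6, known from planar polarity and hair patterning, was at 51.2 (28.7 to 73.6) before injury, 24.9 (14.4 to 35.5) on day 5 and 27.8 (15.3 to 40.4) on day 15. Before injury its interval lay above that of the next receptor, Lrp6, and it held 47.8% of the receptor sum, against 5.77% for Fzd1. On day 5 Fzd6 held 22.4% and Fzd1 21.9%. Fzd6 itself was not apart.

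Fzd4, the receptor of Norrin in eye vessels, was at 5.75 (2.47 to 9.04) before injury, 2.96 (1.28 to 4.65) on day 5 and 2.45 (1.07 to 3.83) on day 15, and Fzd10 at 2.73 (0.649 to 4.8), 4.5 (1.45 to 7.54) and 7.28 (2.95 to 11.6). The co-receptor Lrp6 was at 16.6 (8.36 to 24.9) before injury, 21.3 (10.7 to 31.9) on day 5 and 18.5 (9.09 to 28.0) on day 15, and Lrp5 at 5.29 (2.5 to 8.09), 8.34 (4.03 to 12.6) and 7.77 (3.8 to 11.7). None of these was apart. Fzd2, Fzd3, Fzd5 and Fzd7 had log2 ratios under 1 in size on both days, and Fzd8 and Fzd9 stayed below FPKM of 1.

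**Figure D3:**
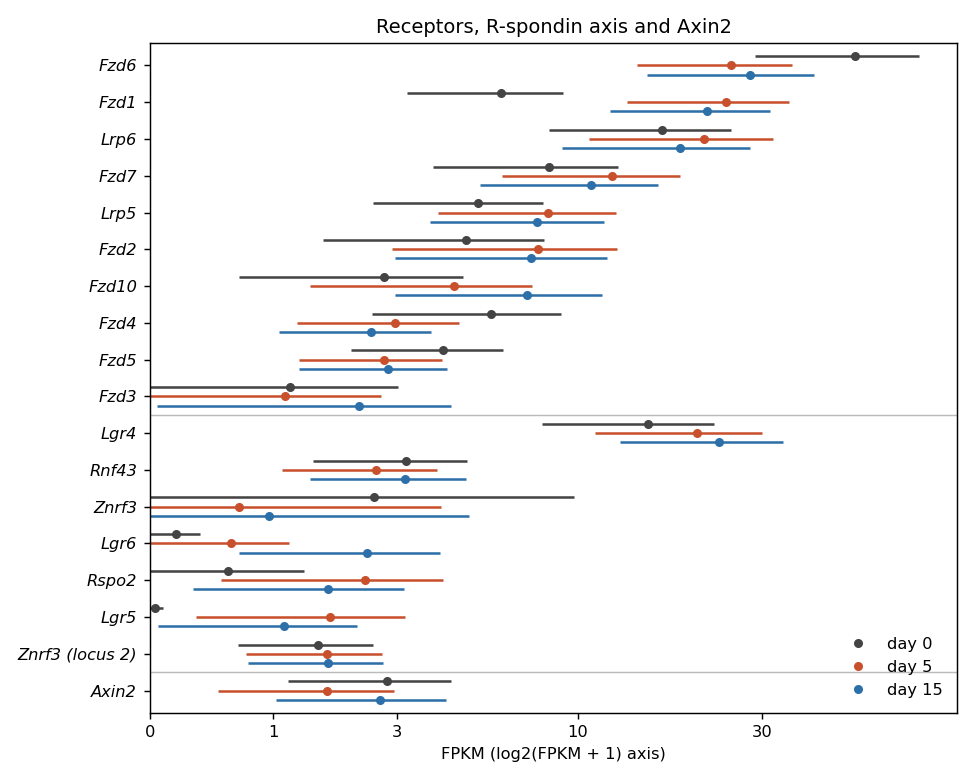
FPKM of receptors (top), the R-spondin axis (middle) and Axin2 (bottom) for members that reached FPKM of 1 in any group, on a log2(FPKM + 1) axis, with points for group values and lines for the authors' intervals (day 0 grey, day 5 red, day 15 blue). Fzd1 lies higher on days 5 and 15 than on day 0 without overlap, and Lgr5 and Lgr6 start close to 0.

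In the R-spondin axis, Lgr5 and Lgr6, receptors known as stem cell markers of other epithelia, were higher after injury at low levels. Lgr5 (chromosome 10, 115450314 to 115587780) was at 0.0295 (0 to 0.0777) before injury, 1.74 (0.297 to 3.19) on day 5 and 1.12 (0.0486 to 2.19) on day 15, and was apart on day 5 with a log2 ratio of 1.41. Lgr6 (chromosome 1, 134983302 to 135105276) was at 0.157 (0 to 0.324) before injury, 0.577 (0 to 1.18) on day 5 and 2.38 (0.653 to 4.1) on day 15, and was apart on day 15 with a log2 ratio of 1.54. Lgr5 had its highest value on day 5 and Lgr6 on day 15, but for both genes the intervals of those days overlapped. No fold is given, since their day 0 values are close to 0.

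Lgr4, the broadly expressed receptor of the family, was at 15.3 (8.0 to 22.7) before injury, 20.5 (11.1 to 29.9) on day 5 and 23.4 (12.9 to 33.8) on day 15, each time above the next gene, Rnf43, without overlap. Rnf43 was at 3.21 (1.49 to 4.93), 2.55 (1.09 to 4.0) and 3.17 (1.46 to 4.88). Rspo2 was the one R-spondin gene to reach FPKM of 1, at 0.546 (0 to 1.37) before injury, 2.34 (0.487 to 4.19) on day 5 and 1.72 (0.272 to 3.17) on day 15, and the other 3 did not exceed 0.470. One Znrf3 locus was at 2.51 (0 to 9.78), 0.644 (0 to 4.12) and 0.956 (0 to 5.0) and the other, more narrowly measured, at 1.57 (0.643 to 2.5), 1.69 (0.712 to 2.68) and 1.71 (0.733 to 2.69). Lgr4, Rnf43, Rspo2 and Znrf3 were not apart.

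Axin2, the usual reporter of beta-catenin signalling, was at 2.79 (1.17 to 4.4) before injury, 1.7 (0.467 to 2.93) on day 5 and 2.64 (1.02 to 4.26) on day 15. All 3 intervals overlapped, and the log2 ratios to day 0 were -0.49 and -0.06. Lef1 was at 0.485 (0 to 1.03), 0.0966 (0 to 0.282) and 0.132 (0 to 0.357), and Tcf7 at 0.387 (0.0172 to 0.757), 0.731 (0.0647 to 1.4) and 0.754 (0.0807 to 1.43). Both nuclear factors stayed below FPKM of 1.

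Between days 5 and 15 none of 37 members tested was apart, beside 0.395% of 14683 loci higher and 0.388% lower in the table, and the intervals of these days overlapped for all 55 members. Of the 40 members that reached FPKM of 1, 28 had a day 15 value between those of day 0 and day 5, among them 7 of the 8 apart on day 5. The same count over all loci was not made. Those 8 were picked by their day 5 values, so their count cannot show a return toward day 0. In all, 10 members were apart from day 0 on either day and 6 of these on both, in the same direction.

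**Figure D4:**
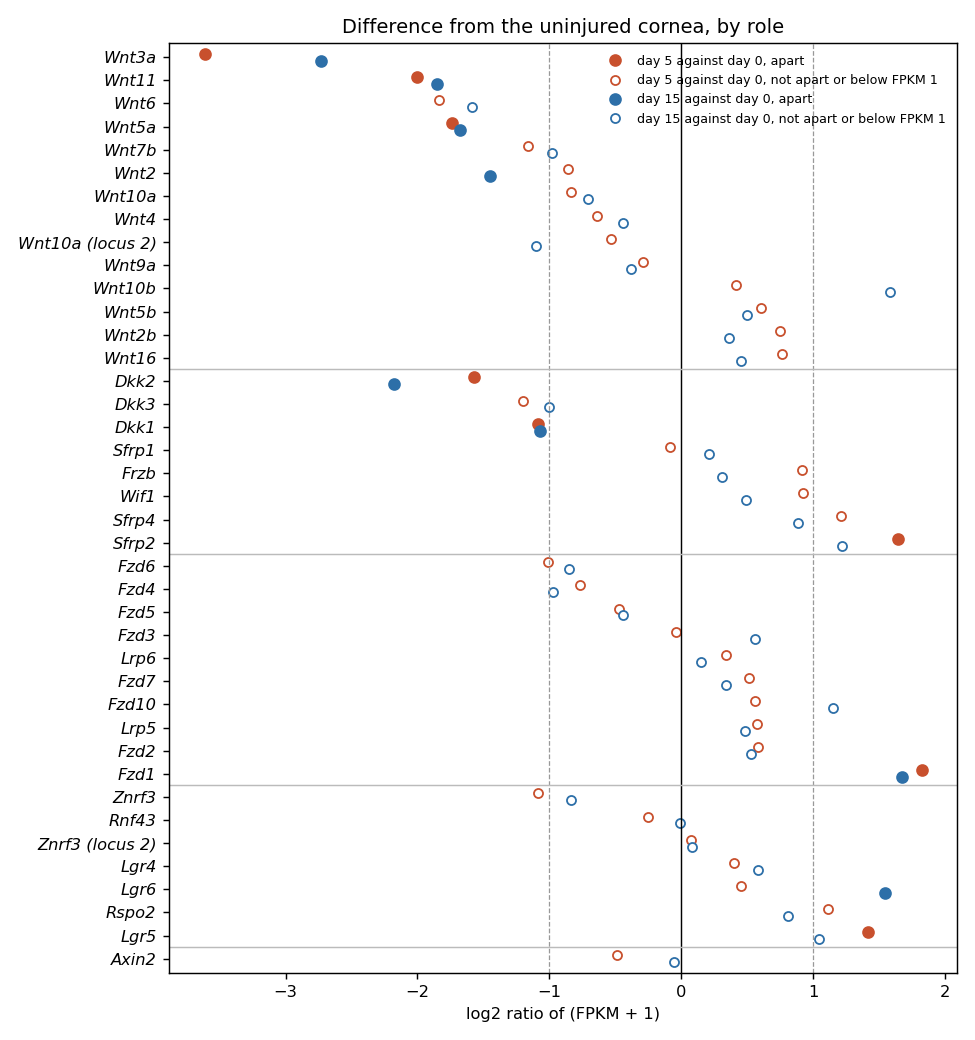
Log2 ratio of (FPKM + 1) to day 0 (x axis) for each member that reached FPKM of 1, grouped by role, on day 5 (red) and day 15 (blue); filled points were apart from day 0, open points were not or lay below the minimum, and dashed lines mark -1 and 1. Wnt3a lies farthest from 0, at -3.61 and -2.73.

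Other genes of the pathway were read in the same way. Beside each list below stand the shares over all tested loci. These were 3.42% higher and 2.50% lower and apart on day 5, and 2.91% and 1.81% on day 15. In lists this short, 1 call is a single locus and shows no difference from these shares. In the list for Wnt secretion and ligand modification, 1 of 9 tested was higher and apart on day 5, 1 of 8 on day 15, and none was lower and apart. That gene was Sulf2, a sulfatase that edits the heparan sulfate holding Wnts, at 0.848 (0.365 to 1.33) before injury, 8.01 (4.31 to 11.7) on day 5 and 5.62 (3.15 to 8.08) on day 15. Its relative Sulf1 was at 10.8 (5.23 to 16.4), 28.2 (15.5 to 40.9) and 16.4 (8.95 to 23.9), not apart. Wls, which carries Wnts to the cell surface, was at 61.3 (31.9 to 90.7) before injury, 81.8 (45.6 to 118) on day 5 and 107 (57.4 to 156) on day 15, and the Wnt acyltransferase gene Porcn at 12.5 (4.08 to 21.0), 13.3 (4.47 to 22.2) and 13.6 (4.4 to 22.8), and neither was apart.

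Among other receptors and ligands, 1 of 12 was higher and apart on day 5 and 2 of 12 on day 15, and none was lower and apart. Cthrc1, a secreted protein of injured tissue that favours the polarity branch, was at 18.5 (7.0 to 30.004) before injury, 197 (114 to 279.88) on day 5 and 106 (59.3 to 153) on day 15. Tspan12, a partner of Fzd4 in Norrin signalling, was at 3.54 (0.772 to 6.31) before injury, 12.6 (5.56 to 19.7) on day 5 and 22.3 (11.6 to 32.9) on day 15, apart on day 15. Norrin's own gene, Ndp, did not exceed 0.155. Smo, a Hedgehog receptor component kept in this list, was at 12.6 (6.49 to 18.8), 30.6 (16.8 to 44.4) and 32.0 (17.8 to 46.2), not apart.

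Inside the cell, none of 15 destruction complex genes and none of 11 nuclear factors tested was apart on either day. The medians were -0.14 and -0.15 for the first list and 0.21 and 0.02 for the second. Ctnnb1, the gene of beta-catenin, was at 204 (108 to 299) before injury, 193 (106 to 279.78) on day 5 and 213 (118 to 308) on day 15. In the first list the widest ratios were those of Dvl1, which relays the signal from Frizzleds, at 4.46 (0 to 10.7), 1.96 (0 to 4.8) and 1.86 (0 to 4.5), of the kinase gene Csnk1e with a log2 ratio of 0.51 and 0.82 and of Amer1, a partner of Apc, at 7.7 (4.25 to 11.2), 4.71 (2.49 to 6.93) and 4.86 (2.54 to 7.17). On day 5, 8 of the 11 nuclear factors had a higher value and 3 a lower one, and on day 15, 6 and 5. Over all tested loci, 6993 of 15576 had a higher value on day 5 and 6548 of 15186 on day 15. Bcl9, a co-activator of beta-catenin, was at 3.63 (0 to 8.29), 9.15 (0.318 to 18.0) and 5.55 (0 to 12.2), and the co-repressor gene Tle1 had log2 ratios of 0.64 and 1.07. The co-repressor gene Tle4 was at 15.3 (4.14 to 26.4), 6.56 (2.94 to 10.2) and 7.88 (4.52 to 11.2), and Ctnnbip1, an inhibitor of beta-catenin, at 10.9 (4.61 to 17.2), 4.64 (1.49 to 7.79) and 4.86 (1.64 to 8.08). In the planar polarity and calcium list none of 18 was apart on day 5 and 1 of 18 on day 15, the small GTPase gene Rac1, at 40.4 (22.6 to 58.1) before injury, 78.0 (45.2 to 111) on day 5 and 106 (62.0 to 150.12) on day 15. Prickle2, a core polarity gene, had the widest ratios of that list, at 21.7 (0 to 47.5), 5.33 (0 to 12.0) and 4.91 (0 to 10.7), with intervals from 0 that overlapped, and Prickle1 was at 2.0 (0.609 to 3.39), 6.13 (2.96 to 9.3) and 5.04 (2.25 to 7.84), not apart.

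Described targets went both ways. On day 5, 2 of 18 were higher and 2 lower and apart, and on day 15, 0 of 17 were higher and 2 lower. Ccnd1, the cyclin D1 gene, was at 178 (98.5 to 256) before injury, 62.4 (35.1 to 89.6) on day 5 and 58.3 (32.8 to 83.7) on day 15. Id2, an inhibitor of differentiation factors, was at 247 (136 to 358) before injury, 55.7 (29.1 to 82.3) on day 5 and 83.5 (45.6 to 121) on day 15. Both lay below day 0 on both days. Wisp2, a matricellular gene, was at 8.58 (2.95 to 14.2) before injury, 38.0 (20.7 to 55.4) on day 5 and 18.6 (8.64 to 28.5) on day 15, and Jun, an AP-1 factor gene, at 76.4 (43.2 to 109.55), 202 (112 to 293) and 115 (67.0 to 162), both apart on day 5 only. Each of these 4 genes is known to answer to other pathways too. The feedback gene Nkd1 was at 1.24 (0.173 to 2.31), 1.13 (0.157 to 2.11) and 1.12 (0.0888 to 2.16), not apart. Other targets that were not apart had wider log2 ratios: 1.33 for Myc and 1.28 for Fosl1 on day 5, and 1.05 for Wisp1 and -1.08 for Cd44 on day 15. Of the targets tested, 10 had a higher and 8 a lower value on day 5, and 6 and 11 on day 15.

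Markers of cell types also differed between the groups. Up to 2 loci of a marker list also name another gene. Counts apart in each list stand beside the shares over all tested loci. These were 3.42% higher and 2.50% lower on day 5, and 2.91% and 1.81% on day 15. Kera, a proteoglycan gene of stromal keratocytes, was at 516 (276 to 755) before injury, 11.2 (4.98 to 17.5) on day 5 and 16.2 (7.35 to 25.0) on day 15. Not all keratocyte markers followed it. Lum, a related proteoglycan gene, was at 237 (129 to 346), 243 (128 to 359) and 286 (119.98 to 452) and Cd34 at 17.2 (4.99 to 29.4), 49.9 (26.1 to 73.7) and 35.3 (17.5 to 53.0), and 3 of 9 tested had higher values on day 5. Krt12, the keratin of corneal epithelium, had a failed value before injury and stood at 6.81 and 9.67 afterwards, so the tissue could not be checked on it. Aldh3a1, an abundant corneal epithelial enzyme, was at 9149.9 (998 to 17302) before injury, 303 (165 to 441) on day 5 and 866 (437 to 1294) on day 15, apart on day 5 only.

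Beside the lower ligands and Dkk genes, 5 of 11 epithelial markers were lower and apart on day 5 and 3 on day 15, with summed FPKM of 39899.6, 4783 and 8017 in day order. Of these sums Slurp1, Lypd2 and Aldh3a1, singled out after their values were seen, held 34574, 306 and 868, and the rest of the list summed to 5325, 4477 and 7148. The failed Krt12 value entered both day 0 sums as 0, so these sums leave out that keratin and cannot be compared fully with the later ones. The other 6 markers that were not apart on either day went in both directions. Krt14 was at 179.59 (92.4 to 267), 500.19 (153 to 847) and 759.88 (205 to 1315), Krt15 at 2435, 2974 and 4877, the E-cadherin gene Cdh1 at 76.9, 132 and 114. Trp63 was at 118, 105 and 101 and Krt5 at 1199, 589.73 and 796. Pax6 was at 128 (119.51 to 136.38), 63.6 (40.7 to 86.5) and 108 (71.95 to 143). Its day 5 interval lay below that of day 0, and it missed the call because its log2 ratio fell just short of 1 in size. Of 9 keratocyte markers, 5 and 4 were lower and apart, with sums of 5217, 1830.1 and 2684. Dcn, not apart on either day, held 3484, 1388 and 2104 of these sums. Beside the higher Fzd1 and Sfrp2, 6 and 5 of 10 markers of activated fibroblasts were higher and apart, with sums of 916, 3304 and 3193. Col1a1, not apart, held 695, 1179 and 1472 of these sums, and Col3a1, apart on both days, 67.7, 1351 and 1019. Blood endothelial markers were higher and apart for 6 of 10 on both days, with sums of 34.1, 201 and 142. Erg alone held 12.0, 118 and 56.3 of these sums, and Kdr, not apart, was at 3.66, 3.47 and 3.88. Of neutrophil and macrophage markers 5 of 11 were higher and apart on day 5 and 5 of 10 on day 15, with sums of 713, 1450.1 and 1442. A locus that joins Cd68 with other genes held 579, 587 and 559 of these sums, and without it they were 134, 864 and 883.

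Conjunctival and goblet cell markers, 4 and 6 of 9 higher and apart, summed to 1800.0, 4092 and 10552. Most of these sums came from Krt4, at 757, 2070 and 6733.5, and Krt13, at 769, 765 and 2271, and neither was apart. The day 15 interval of Krt4 ran from 429 to 13038. On day 5, 5 of 8 lens markers, 1 of 7 iris and pigment markers and 1 of 6 retinal markers were lower and apart, and on day 15 none of these was. Skeletal muscle markers were lower and apart for 0 of 7 on day 5 and 5 of 7 on day 15. Lens markers summed to 397, 53.3 and 265, iris and pigment markers to 365, 86.8 and 251, retinal markers to 54.9, 21.7 and 99.4 and skeletal muscle markers to 519, 331 and 69.8. Of the lists that follow, Mcam (mural) and Col8a1 (corneal endothelium) were higher and apart on both days, Slc4a11 (corneal endothelium) was lower and apart on both days, S100b (Schwann) was lower and apart on day 5, and no other marker was apart. Sums were 57.5, 107 and 78.7 for mural cells, 33.0, 83.0 and 67.4 for lymphatic endothelium, 219, 245 and 219 for corneal endothelium, 86.8, 66.3 and 78.7 for Schwann cells and 1.39, 7.57 and 7.89 for T cells. Before injury 2 T cell markers and 1 conjunctival marker were listed at 0 with a good status, and Krt12 at 0 with a failed one. The part of these cell types in the differences of the Wnt genes was not tested.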

How the data were processed

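The authors deposited FPKM in a gene table laid out as Cuffdiff writes it, with 1 value, 1 interval and 1 status per group, and 0 columns for single samples. Tools listed in the submitters' processing notes are Bowtie2 2.2.6, TopHat2 2.1.0, Cuffdiff and Cufflinks 2.2.1, with build mm10. Depth is unknown, and precision is that of the intervals: their half-width had a median of 50.2%, 49.1% and 49.3% of the value (days 0, 5 and 15) for members from FPKM 5 up, and 76.2%, 73.2% and 72.7% from 1 to 5.

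Calls were made over all 28539 loci with a pseudocount of 1 and tested on simulated data. Folds are plain FPKM ratios. All 55 members had a good status, overlapped the GENCODE M21 gene of their symbol and shared their locus with no other symbol, and 9 have an exon overlapped by a gene on the other strand. Members and lists were chosen with earlier results of these data known. Named genes were all members apart, the 4 widest ratios and the most abundant gene of each role, and of each pathway list those apart and up to 3 with wide ratios. Porcn, Ctnnb1, Ndp, Tle1, Nkd1, Myc, Fosl1, Wisp1, Cd44 and single cell type markers were chosen after their values were seen. Alternatives covered the pseudocount, the minimum, the fold size, overlap of intervals, scaling, and loci shared by or split within a symbol. Python 3.11.15, numpy 2.4.6, pandas 2.3.3 and matplotlib 3.10.9 were used.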

Additional observations from a re-analysis of the deposited data

How the results depend on the processing

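The calls rest on the authors' intervals. Without them, 5 members were higher and 10 lower on day 5 against day 0 (3 and 5 with them), 6 were higher on day 15 against day 0 (2 with them), and Lgr6 and Wnt10b, 2 members, were higher on day 15 against day 5 (0 with them). When the higher value had to reach FPKM of 5, Dkk1 and Lgr5 lost their call on day 5 and Dkk1, Lgr6 and Wnt2 on day 15, which left 1 member higher on day 15. The calls of Wnt3a, Wnt5a, Wnt11, Dkk2 and Fzd1 on both days and of Sfrp2 on day 5 were kept with that minimum and after rescaling. The other alternatives could not remove these calls, because they loosened the rule or did not touch these loci. The median log2 ratio over members was -0.53 on day 5 and -0.44 on day 15 with that minimum, against -0.17 and 0.03, and 0.00 on day 5 with no minimum. A pseudocount of 0.1, a fold of 1.5, no minimum, rescaling, leaving out merged loci and summing the loci of a symbol changed no call of a member. No member lay on a merged locus, so leaving those out could change nothing. Rescaling took out a median shift of -0.11 (day 5) and -0.07 (day 15) over 7611 loci. Over all loci, the share of higher calls against day 0 went from 57.8% to 49.5% on day 5 and from 61.6% to 47.0% on day 15 without the intervals, with 1687 higher and 1722 lower calls on day 5 (533 and 389 with them) and 1270 and 1432 on day 15 (442 and 275). Day 15 against day 5 then had 384 higher and 492 lower calls (58 and 57). No paired analysis was possible because the table gives 1 pooled value per group, and replicates could not be left out for the same reason. For the 15 members below FPKM of 1 in every group no difference was read.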
